A study of Saccharomyces cerevisiae with 8 samples.

Results

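The genes of serine synthesis and breakdown, serine-glycine exchange and glycine cleavage were followed over strain and temperature in the budding yeast *Saccharomyces cerevisiae*. They are 10 genes chosen by name, *SER3*, *SER33*, *SER1*, *SER2*, *SHM1*, *SHM2*, *GCV1*, *GCV2*, *GCV3* and *CHA1*, of 5449 genes measured, and each was read by 1 probe set of an Affymetrix expression array. Total RNA was compared among 8 arrays, 2 for each of 4 groups: strains PY1 and met30-6 (py283), each kept for 1 h at either 25 °C or 35 °C. No source used here states what genotype PY1 has. The met30-6 strain carries a temperature-sensitive form of Met30, an F-box protein whose ubiquitin ligase restrains Met4, the activator of the sulfur amino acid genes. All cultures grew to mid-log phase in YPDA, a rich medium, at the lower temperature, which the labels call room temperature and permissive, before part of them went to 35 °C, the non-permissive temperature. The study set these temperatures against each other to find transcripts that mark the loss of Met30 activity.

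Yeast makes serine from the glycolytic intermediate phosphoglycerate in a chain of dehydrogenase, aminotransferase and phosphatase. Serine hydroxymethyltransferase turns serine into glycine and passes the freed carbon to tetrahydrofolate, the carrier of one-carbon units used for methionine, purines and thymidylate. The mitochondrial glycine cleavage complex takes a further one-carbon unit from glycine, and the serine deaminase Cha1 breaks serine down to pyruvate. In rich medium *SER3* is known to be repressed when serine is present, by transcription of the noncoding RNA *SRG1* across its promoter, and *CHA1* is known to be induced by serine. Both *SRG1* and *CHA1* are turned on by the activator Cha4. *SRG1* was not analysed here.

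Values are the authors' deposited log2 expression values, so a difference of 1 stands for a 2-fold change, and no value on any array exceeded 14.51. Replicates correlated across genes at Pearson's r between 0.9931 and 0.9954, and array medians over all probe sets lay between 10.97 and 11.09. Among the 10 genes the median gap between replicates was 0.11 in PY1 at 25 °C, where replicate 1 was the higher in 7 of them, and 0.015 to 0.048 in the other groups. Over all genes the median gap was also widest in PY1 at 25 °C, 0.10 against 0.059 to 0.081 in the other groups. Replicate 1 was the higher there for genes outside the members too, as for *THR1* (13.46 against 13.08), though not for *ADE4* (12.22 against 12.45). Calls that depend on either of these arrays are therefore not independent between genes. Whether replicates were separate cultures is not stated, and p-values reflect only how far these samples spread, which may be technical. The *MET30* transcript had means (n = 2) of 11.02 in unheated and 10.98 in heated PY1, and of 11.67 in unheated and 13.07 in heated met30-6, which does not check the strain labels, since the allele acts on the protein.

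The heat response of the 10 genes differed between the strains by the test with all arrays. For *GCV3* the call was lost on leaving out most single arrays, though its value then changed little. In the interaction, defined as the heat response (35 °C minus 25 °C) of met30-6 less the heat response of PY1, 8 of the 10 were called higher and 2 lower at an adjusted p under 0.05 in limma, a linear model fitted across all genes. Among all genes tested 48.3% were called, 23.7% higher and 24.5% lower. The median interaction of the 10 genes was 1.02 on the log2 scale, against 0.0025 over all genes. *CHA1*, *SER33*, *GCV1*, *GCV2* and *SER3* had interactions above 1, though whether *CHA1* lay above background in met30-6 at 25 °C is not known. *SER2* and *SHM1* were the members with lower responses in met30-6.

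**Figure D1:**
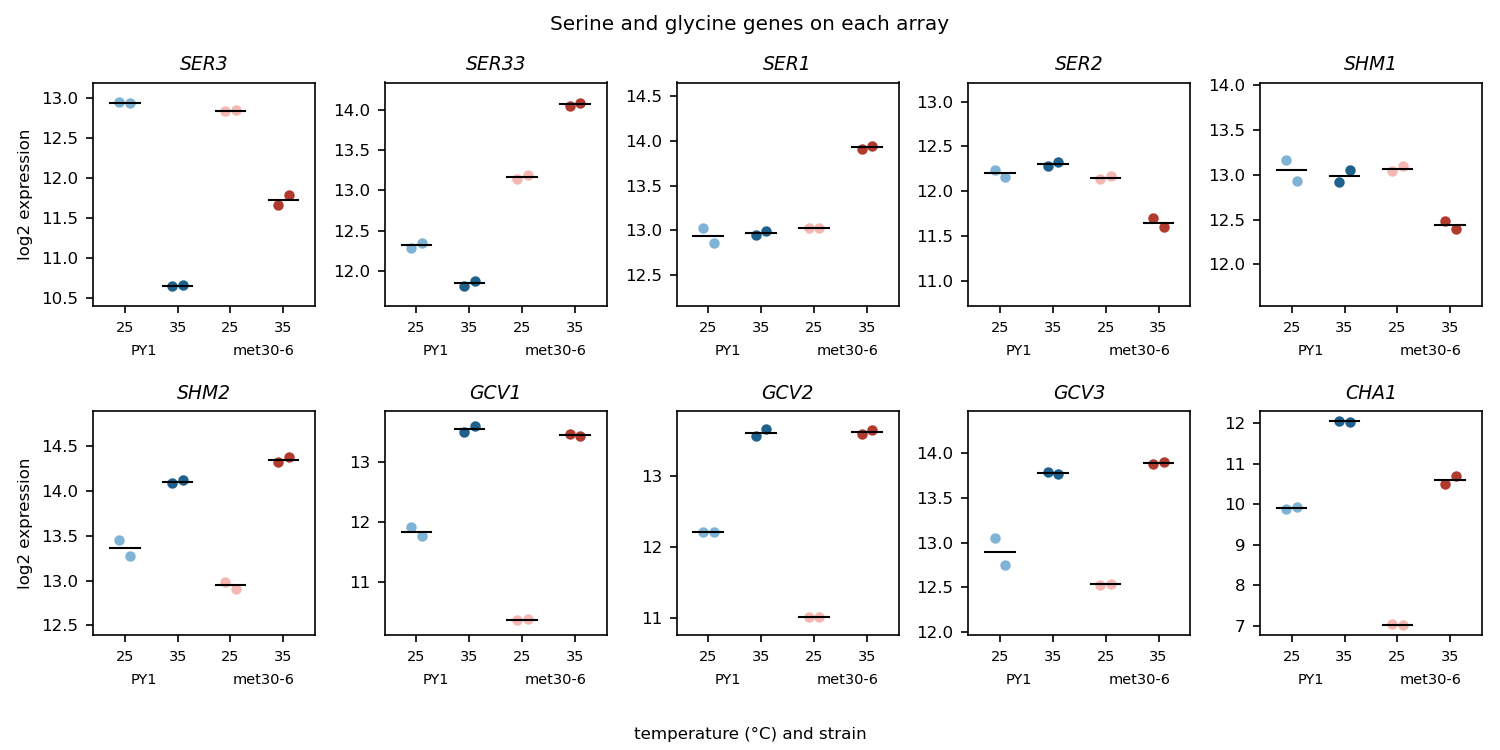
Log2 expression (vertical axes) of the 10 genes on each of the 8 arrays, by strain and temperature; points are arrays and black lines group means (n = 2). *GCV1*, *GCV2*, *GCV3* and *CHA1* are lowest in met30-6 at 25 °C and higher at 35 °C in both strains, and *SER3* is lowest in PY1 at 35 °C. Vertical scales differ among panels.

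The dehydrogenase step is carried out by the isozymes Ser3 and Ser33, and their transcripts parted in met30-6. *SER3* (YER081W) read 12.94 and 12.93 in PY1 at 25 °C and 10.64 and 10.65 at 35 °C. In met30-6 it read 12.83 and 12.85 at 25 °C and 11.66 and 11.78 at 35 °C. Both strains were thus high at 25 °C and lower at 35 °C with no overlap, and PY1 at 35 °C was the lowest group. *SER3* fell by 2.29 ± 0.06 in PY1 (SE, adjusted p = 4.16e-06), a 4.88-fold decrease, and of all genes only 2 had a lower value in that comparison. In met30-6 it fell by 1.12 ± 0.06 (adjusted p = 7.99e-06), and the interaction was 1.17 ± 0.08 (adjusted p = 9.38e-05). At 35 °C *SER3* was 2.10-fold higher in met30-6 than in PY1, whereas at 25 °C the difference was −0.10, with a 95% interval from −0.23 to 0.04.

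*SER33* (YIL074C) read 12.29 and 12.35 in PY1 at 25 °C and 11.81 and 11.88 at 35 °C. In met30-6 it read 13.14 and 13.19 at 25 °C and 14.05 and 14.09 at 35 °C. Every met30-6 array was above every PY1 array, and heat moved the strains in opposite directions. *SER33* fell by 0.47 ± 0.05 in PY1 (adjusted p = 0.00118) and rose by 0.90 ± 0.05 in met30-6 (adjusted p = 1.55e-05), with an interaction of 1.38 ± 0.08 (adjusted p = 5.85e-05). It was the member most in excess in met30-6, 1.80-fold at 25 °C and 4.67-fold at 35 °C. Its heated met30-6 arrays were near 14.51, the highest value of any array. In met30-6 at 35 °C the *SER3* transcript was thus below, and that of *SER33* above, its own level at 25 °C.

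Past the dehydrogenase the pathway split as well. *SER1* (YOR184W), which encodes phosphoserine aminotransferase, read 13.03 and 12.86 in unheated PY1 and 12.95 and 12.99 in heated PY1. In unheated met30-6 it read 13.03 on both arrays, and in heated met30-6 13.91 and 13.95. The heated met30-6 arrays stood above all others. *SER1* rose by 0.90 ± 0.07 in met30-6 (adjusted p = 3.57e-05), and its change of 0.03 in PY1 was not called. *SER2* (YGR208W), which encodes the phosphatase of the last step, read 12.23 and 12.16, then 12.28 and 12.33, in PY1 at 25 °C and 35 °C. In met30-6 it read 12.13 and 12.17 at 25 °C and 11.69 and 11.60 at 35 °C. Here the heated met30-6 arrays were below all others. *SER2* fell by 0.50 ± 0.06 in met30-6 (adjusted p = 0.000298), and its change of 0.11 in PY1 was not called. The interactions of *SER1* and *SER2* were 0.88 ± 0.09 (adjusted p = 0.000502) and −0.61 ± 0.08 (adjusted p = 0.00131).

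The serine hydroxymethyltransferases also went apart. *SHM1* (YBR263W) encodes the mitochondrial enzyme and read 13.17 and 12.93 in unheated PY1 and 12.92 and 13.06 in heated PY1. In unheated met30-6 it read 13.04 and 13.10, and in heated met30-6 12.49 and 12.39. Its heated met30-6 arrays were the lowest, and the other groups overlapped. *SHM1* fell by 0.63 ± 0.09 in met30-6 (adjusted p = 0.000952). In PY1 its change was −0.06, with a 95% interval from −0.28 to 0.16, but with quantile normalisation it was −0.20 and was called (adjusted p = 0.0139). The interaction was −0.57 ± 0.13 (adjusted p = 0.0118).

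*SHM2* (YLR058C) encodes the cytosolic enzyme and read 13.46 and 13.28 in PY1 at 25 °C and 14.09 and 14.12 at 35 °C. In met30-6 it read 12.99 and 12.91 at 25 °C and 14.33 and 14.38 at 35 °C. The 4 groups did not overlap, with met30-6 lowest at 25 °C and highest at 35 °C. *SHM2* rose by 0.74 ± 0.07 in PY1 (adjusted p = 0.000632) and by 1.40 ± 0.07 in met30-6 (adjusted p = 8.07e-06), with an interaction of 0.67 ± 0.10 (adjusted p = 0.00207). The heated arrays were near 14.51, the highest value of any array. The strain differences of *SHM2* were −0.42 at 25 °C (adjusted p = 0.0111) and 0.25 at 35 °C (adjusted p = 0.0193). The call at 25 °C ended without met30-6 25 °C replicate 2 (−0.38, adjusted p = 0.0764). That at 35 °C ended when PY1 35 °C replicate 1 (0.23), PY1 35 °C replicate 2 (0.26) or met30-6 35 °C replicate 2 (0.22) was left out, with adjusted p-values of 0.0837, 0.0589 and 0.0882.

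All 3 genes specific to the glycine cleavage complex rose with heat in both strains, from lower levels in met30-6. *GCV1* (YDR019C), which encodes the aminomethyltransferase or T subunit, read 11.91 and 11.76 in PY1 at 25 °C and 13.50 and 13.60 at 35 °C. In met30-6 it read 10.36 and 10.38 at 25 °C and 13.47 and 13.43 at 35 °C. The met30-6 arrays at 25 °C were well below all others, and the strains lay close together at 35 °C. *GCV1* rose 3.27-fold in PY1 (1.71 ± 0.07, adjusted p = 1.82e-05) and 8.46-fold in met30-6 (3.08 ± 0.07, adjusted p = 4.52e-07), with an interaction of 1.37 ± 0.10 (adjusted p = 9.55e-05).

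*GCV2* (YMR189W), which encodes the glycine decarboxylase or P subunit, read 12.21 and 12.22 in PY1 at 25 °C and 13.57 and 13.67 at 35 °C. In met30-6 it read 11.004 and 11.013 at 25 °C and 13.61 and 13.65 at 35 °C. As for *GCV1*, met30-6 at 25 °C was lowest, and here the strains overlapped at 35 °C. *GCV2* rose 2.65-fold in PY1 (1.41 ± 0.06, adjusted p = 1.82e-05) and 6.15-fold in met30-6 (2.62 ± 0.06, adjusted p = 4.52e-07), with an interaction of 1.21 ± 0.08 (adjusted p = 7.6e-05). At 25 °C the strain differences of *GCV1* and *GCV2* were −1.47 ± 0.07 and −1.21 ± 0.06 (adjusted p = 3.32e-05 for each), and only 15 and 25 of all genes had lower values. At 35 °C they were −0.10 (95% interval −0.26 to 0.06) and 0.006 (−0.13 to 0.14). These values at 35 °C depended on the scaling: with quantile normalisation they were −0.35 and −0.26 and both were called (adjusted p = 0.00142 and 0.00216).

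*GCV3* (YAL044C), which encodes the lipoyl-carrying H subunit, read 13.05 and 12.75 in PY1 at 25 °C and 13.79 and 13.77 at 35 °C. In met30-6 it read 12.53 and 12.54 at 25 °C and 13.88 and 13.90 at 35 °C. Unheated met30-6 was again lowest, with heated met30-6 just above heated PY1, and its PY1 replicates at 25 °C were the farthest apart of any member. *GCV3* rose by 0.88 ± 0.09 in PY1 (adjusted p = 0.000863) and by 1.36 ± 0.09 in met30-6 (adjusted p = 2.53e-05). The interaction of 0.48 ± 0.13 (adjusted p = 0.0215) was called with all arrays or without either PY1 array at 25 °C. It was not called when any of the other 6 arrays was left out, where the value lay between 0.47 and 0.49 and the adjusted p between 0.0522 and 0.0628. The difference at 25 °C, −0.37 ± 0.09, passed narrowly (adjusted p = 0.0474) and ended without any array other than PY1 25 °C replicate 2. It was −0.22 without PY1 25 °C replicate 1 (adjusted p = 0.0595) and from −0.37 to −0.36 without the others (adjusted p from 0.0804 to 0.17), and with the replicate number as a block it was not called (adjusted p = 0.0693). *LPD1* encodes the dihydrolipoamide dehydrogenase that this complex shares with other mitochondrial complexes. It rose by 0.60 ± 0.10 in met30-6 (adjusted p = 0.00135), and its values of 0.27 in PY1 and 0.33 in the interaction were not called. Both were called with quantile normalisation (0.13 and 0.19, adjusted p = 0.0403 and 0.0285), without the dimmest genes (adjusted p = 0.0184 and 0.0297) and with an intensity trend (adjusted p = 0.0265 and 0.0449). Without PY1 25 °C replicate 1 they were 0.42 and 0.18 (adjusted p = 0.00747 and 0.132), and without replicate 2 0.13 and 0.47 (adjusted p = 0.203 and 0.00698).

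*CHA1* (YCL064C), the serine and threonine deaminase gene, had the widest range of group means among the members, 5.02 on the log2 scale. It read 9.89 and 9.93 in PY1 at 25 °C and 12.05 and 12.04 at 35 °C. In met30-6 it read 7.03 and 7.02 at 25 °C and 10.50 and 10.69 at 35 °C. The 4 groups did not overlap, and met30-6 was below PY1 at both temperatures. *CHA1* rose 4.38-fold in PY1 (2.13 ± 0.07, adjusted p = 1.03e-05) and by 3.57 ± 0.07 on the log2 scale in met30-6 (adjusted p = 4.52e-07), with an interaction of 1.44 ± 0.10 (adjusted p = 9.3e-05). In met30-6 at 25 °C it was lower than in PY1 (−2.88 ± 0.07, adjusted p = 1.52e-06), and 2 of all genes had lower values. Whether its level there lay above background is not known, so no fold is given against it. The log2 values that rest on that group, the interaction included, carry the same limit. At 35 °C it was still 2.73-fold lower (−1.45 ± 0.07, adjusted p = 7.11e-06), where the differences of *GCV1* and *GCV2* were not called on the deposited scale.

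*CHA1* and *SER3* thus went in opposite directions with heat in each strain. In PY1 *CHA1* rose by 2.13 while *SER3* fell by 2.29. In met30-6 *CHA1* rose by 3.57 and *SER3* fell by 1.12. Between the strains at 35 °C *CHA1* was lower in met30-6 (−1.45) and *SER3* higher (1.07), and both were called. At 25 °C *CHA1* had a difference of −2.88 and *SER3* one of −0.10 that was not called. The strain comparisons and the temperature comparisons share arrays, so these values are not independent of each other.

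**Figure D2:**
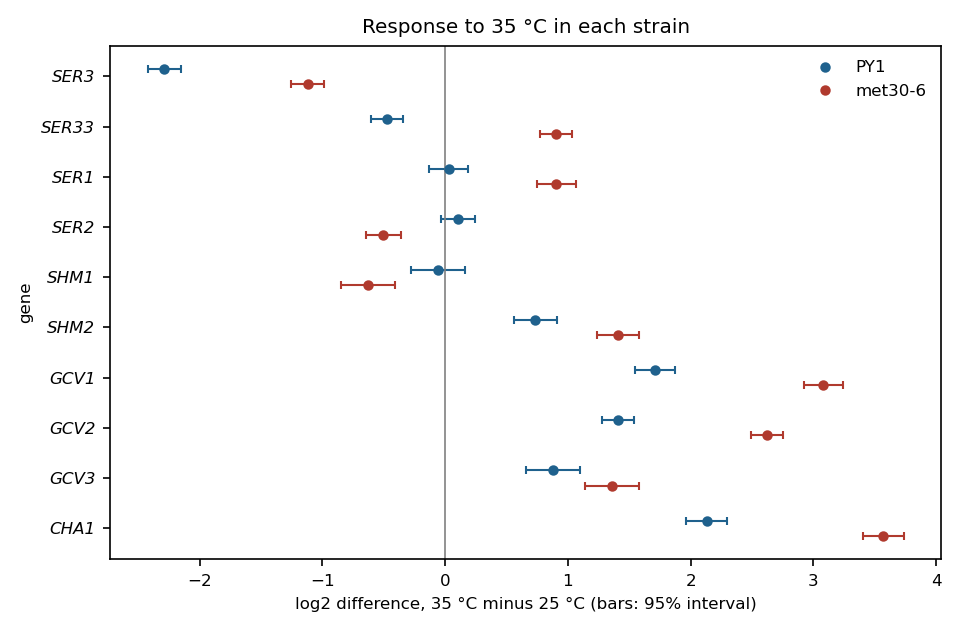
Log2 difference between 35 °C and 25 °C (horizontal axis) for each of the 10 genes in PY1 (blue) and met30-6 (red), with 95% intervals from limma. *SER33* lies on opposite sides of 0 in the strains, and *CHA1* and *GCV1* reach 3.57 and 3.08 in met30-6.

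By comparison, heat in PY1 was called for 7 of the 10 genes, 5 higher (*CHA1*, *GCV1*, *GCV2*, *GCV3* and *SHM2*) and 2 lower (*SER3* and *SER33*), with a median of 0.42 against 0.08 over all genes. The background was 36.7% of all genes called, 26.2% higher and 10.4% lower. Quantile normalisation changed this split over all genes, from 1429 higher and 569 lower to 1150 and 1144. Heat in met30-6 was called for all 10 genes, 7 higher and 3 lower, with a median of 1.13 against 0.07. Here 68.1% of all genes were called, 38.8% higher and 29.3% lower. The 3 lower genes were *SER3*, *SER2* and *SHM1*.

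The strains at 25 °C differed in 6 members, where 12.9% of all genes were called, 6.94% higher and 5.95% lower. *SER33* was higher in met30-6 and *CHA1*, *GCV1*, *GCV2*, *SHM2* and *GCV3* were lower, with a median over the members of −0.23 against 0.0055 over all genes. At 35 °C they differed in 7 members, 4 higher (*SER33*, *SER3*, *SER1* and *SHM2*) and 3 lower (*CHA1*, *SER2* and *SHM1*), against 34% and 32.7% of all genes (66.7% in either direction), so that the shares of members called were near the background there. The median was 0.06 against 0.02.

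**Figure D3:**
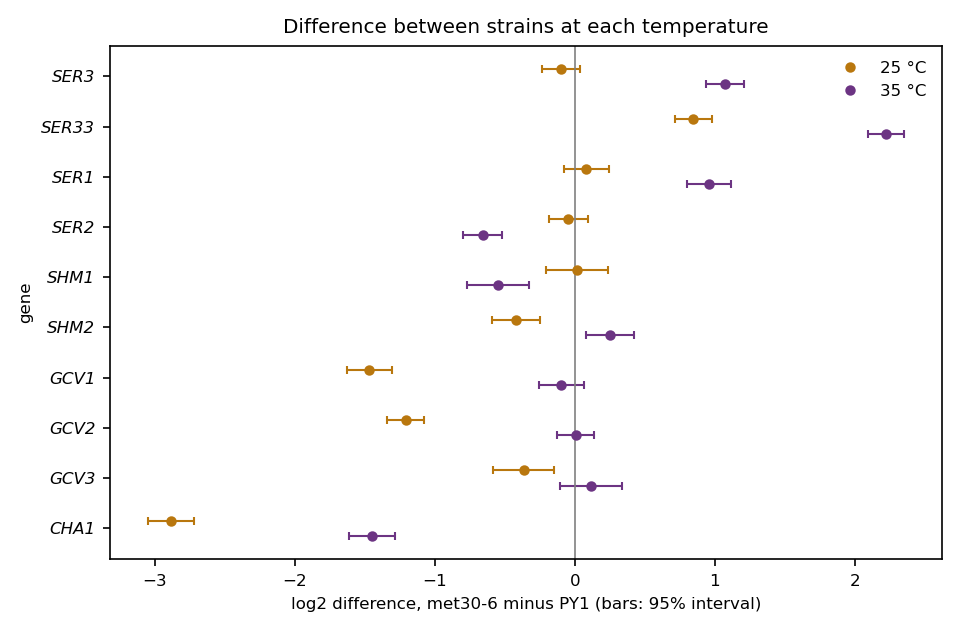
Log2 difference between met30-6 and PY1 (horizontal axis) for each of the 10 genes at 25 °C (orange) and 35 °C (purple), with 95% intervals from limma. *CHA1*, *GCV1* and *GCV2* lie at −2.88, −1.47 and −1.21 at 25 °C, and the *GCV* genes lie near 0 at 35 °C.

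Of 15 genes of folate enzymes, which carry the one-carbon units, 2 were higher and 3 lower in the interaction, with a median of 0.03, where 23.7% and 24.5% of all genes were called. With heat in met30-6 4 were higher and 5 lower, where the background was 38.8% and 29.3%. The shares called were thus near or below those of all genes in both of these comparisons. Between the strains at 25 °C 3 of the 15 were higher in met30-6 and 1 lower, where 6.94% and 5.95% of all genes were. At 35 °C 5 were higher and 6 lower, where the background was 34% and 32.7%. *MIS1*, which encodes the mitochondrial trifunctional folate enzyme, had means (n = 2) of 12.47 in unheated and 12.51 in heated PY1, and of 12.42 in unheated and 10.97 in heated met30-6. *MIS1* fell by 1.45 ± 0.06 in met30-6 (adjusted p = 4.3e-06), its change of 0.04 in PY1 was not called, and its interaction was −1.49 ± 0.09 (adjusted p = 5.85e-05). *CDC21*, the thymidylate synthase gene, and *DFR1*, the dihydrofolate reductase gene, had interactions of −1.27 ± 0.11 (adjusted p = 0.000231) and −0.54 ± 0.09 (adjusted p = 0.00271). *MET13*, the main methylenetetrahydrofolate reductase gene, which feeds methionine synthesis, had 0.53 ± 0.08 (adjusted p = 0.00229).

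For the cytosolic side of the folate pathway 2 genes were chosen after their values were seen. *ADE3* encodes the cytosolic counterpart of *MIS1* and rose by 0.57 ± 0.12 in met30-6 (adjusted p = 0.00415), from 13.59 to 14.16. Its interaction of 0.41 missed the threshold (adjusted p = 0.0762) and depended on the PY1 arrays at 25 °C, being 0.59 without replicate 2 (adjusted p = 0.00765) and 0.24 without replicate 1 (adjusted p = 0.119). It was called with quantile normalisation (0.42, adjusted p = 0.0056). *MTD1*, which encodes the cytosolic NAD-dependent methylenetetrahydrofolate dehydrogenase, rose by 1.13 ± 0.08 in PY1 and by 1.23 ± 0.08 in met30-6 (adjusted p = 0.000179 and 2.16e-05). It was lower in met30-6 by 0.67 at 25 °C (11.27 against 11.93) and by 0.56 at 35 °C (12.50 against 13.06), and the interaction, 0.11, missed the threshold.

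**Figure D4:**
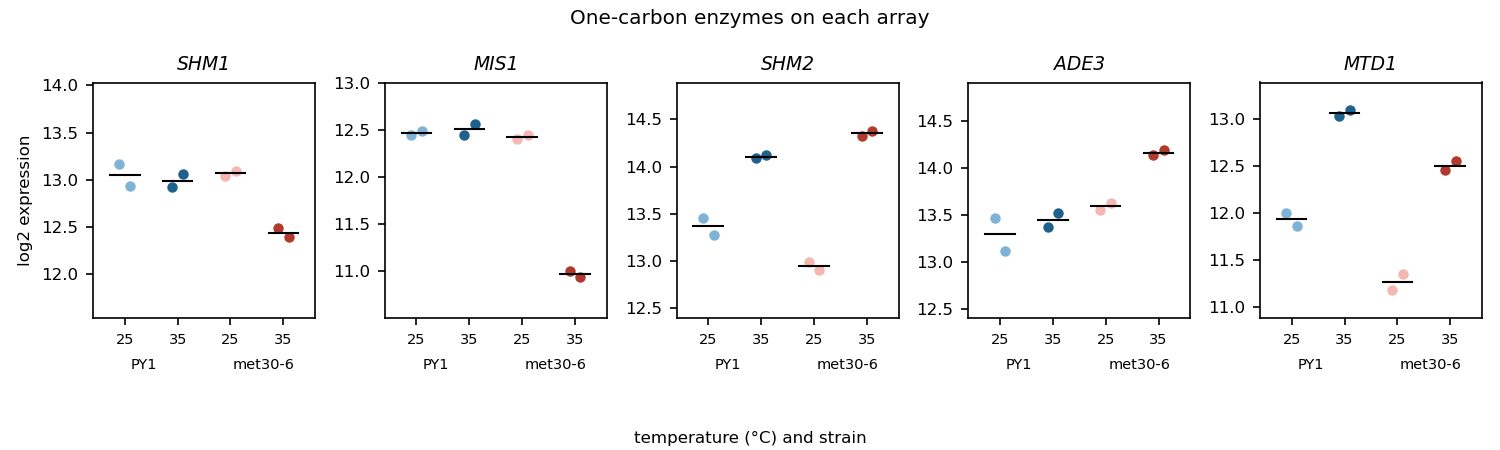
Log2 expression (vertical axes) of 5 one-carbon genes on each array by strain and temperature; points are arrays and black lines group means (n = 2). *SHM1* and *MIS1* are lowest and *SHM2* and *ADE3* highest in met30-6 at 35 °C, and *MTD1* is highest in PY1 at 35 °C. *ADE3* and *MTD1* were chosen after their values were seen, and the interaction of neither was called on the deposited scale.

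Of 8 genes on other routes to and from glycine and threonine, 1 was higher and 2 lower in the interaction, with a median of −0.08. Among all genes 23.7% were called higher and 24.5% lower there. *HOM3*, which encodes aspartate kinase, had 0.67 ± 0.13 (adjusted p = 0.00592). *THR1*, the homoserine kinase gene, and *ILV1*, which encodes the anabolic threonine deaminase, had −0.64 ± 0.17 and −0.41 ± 0.12 (adjusted p = 0.0212 and 0.0258). The *THR1* call ended without PY1 35 °C replicate 2 (−0.57), met30-6 25 °C replicate 2 (−0.60) or met30-6 35 °C replicate 2 (−0.60). That of *ILV1* ended without PY1 35 °C replicate 2 (−0.36), met30-6 25 °C replicate 1 (−0.44) or 2 (−0.39), and met30-6 35 °C replicate 1 (−0.43) or 2 (−0.40). *ILV1* fell by 0.46 ± 0.08 with heat in met30-6 (adjusted p = 0.00251), where *CHA1*, the catabolic deaminase gene, rose. *GLY1*, the threonine aldolase gene, had −0.31, which missed the threshold. It passed without PY1 25 °C replicate 1 (−0.41, adjusted p = 0.0248) but not without replicate 2 (−0.22, adjusted p = 0.142), and passed with quantile normalisation (−0.40, adjusted p = 0.00232), without the dimmest genes (adjusted p = 0.0238) and with an intensity trend (adjusted p = 0.0279).

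Of 8 regulators of these genes, 2 were higher and 1 lower in the interaction, with a median of 0.06. The background was 23.7% of all genes called higher and 24.5% lower. *CHA4*, the activator of *CHA1*, had values between −0.24 and 0.22 in the 5 comparisons, none of them called. It was called without met30-6 25 °C replicate 2 in the interaction (−0.36, adjusted p = 0.0267) and at 25 °C (0.34, adjusted p = 0.0486), where leaving out replicate 1 gave −0.13 and 0.11 (adjusted p = 0.313 and 0.48). It was also called for heat in PY1 (0.20) without met30-6 25 °C replicate 1 or 2 (adjusted p = 0.0459 for each) and without the dimmest genes (adjusted p = 0.0435). *BAS1*, which encodes an activator of the *GCV*, *SHM2* and purine genes, had an interaction of −0.78 ± 0.11 (adjusted p = 0.00151) and fell by 0.45 ± 0.08 with heat in met30-6 (adjusted p = 0.00195). In PY1 it rose by 0.33 ± 0.08 (adjusted p = 0.0172), a call lost without PY1 25 °C replicate 2 (0.27) or PY1 35 °C replicate 1 (0.34) or 2 (0.32). The *GCV* genes and *SHM2* rose in both strains. *GCN4*, the general activator of amino acid synthesis, which is controlled largely at translation, had −0.02 in the interaction, and missed the threshold.

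The remaining regulators moved by at most 0.37 in the interaction. *PHO2*, the partner gene of *BAS1*, had 0.29 ± 0.08 (adjusted p = 0.024), a call kept without PY1 25 °C replicate 2 or met30-6 35 °C replicate 2 and lost without any other array (0.25 to 0.31, adjusted p up to 0.0891). *SPT6*, which encodes a histone chaperone, had 0.37 ± 0.11 (adjusted p = 0.0277). The *SPT6* call ended with quantile normalisation (0.29, adjusted p = 0.103) and without PY1 25 °C replicate 2 (0.32), PY1 35 °C replicate 2 (0.31), met30-6 25 °C replicate 1 (0.33) or met30-6 35 °C replicate 2 (0.29). *GCN2* (0.14), *SNF2* (−0.10) and *SPT16* (0.15) were not called in the interaction, though *SNF2* was with quantile normalisation (−0.19, adjusted p = 0.0484). Other comparisons gave calls among these regulators with all arrays. *PHO2*, *SNF2* and *SPT16* rose with heat in met30-6 by 0.20 to 0.31. In PY1 *SNF2* rose by 0.32 and *SPT6* fell by 0.36, calls that depended on single arrays. At 35 °C *GCN2*, *PHO2*, *SPT6* and *SPT16* were higher in met30-6 by 0.21 to 0.31.

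Of the 10 listed purine genes of the Bas1 regulon 9 were measured, of which 3 were called in the interaction, each higher, with a median of 0.20. There 23.7% of all genes were called higher and 24.5% lower. At 25 °C 4 of the 9 were called, each lower in met30-6, where 12.9% of all genes were called and 5.95% were lower. With quantile normalisation 7 of the 9 were called, and over all genes 531 were higher and 551 lower. *ADE17*, which encodes a late, folate-dependent enzyme of the pathway, was 1.25 lower on the log2 scale at 25 °C (11.78 against 13.03, adjusted p = 0.000241) and rose by 1.52 ± 0.09 with heat in met30-6 (adjusted p = 1.47e-05). Its interaction was 1.03 ± 0.13 (adjusted p = 0.000934). *ADE16*, its isozyme gene, had 0.57 ± 0.08 (adjusted p = 0.00164) and *ADE12*, an adenylosuccinate synthase gene, had 0.48 ± 0.10 (adjusted p = 0.0072). *ADE8* had −0.26, which was not called, with −0.35 when PY1 25 °C replicate 1 was left out (adjusted p = 0.0344) and −0.16 when replicate 2 was (adjusted p = 0.238). It was called with quantile normalisation (−0.33, adjusted p = 0.00685).

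The genes whose profiles over the 8 arrays lay nearest to those of the 4 widest-ranging members were found by the root mean square distance between mean-centred log2 values. For *GCV1* they were *HSP12*, a small heat shock protein gene (0.23), *HPF1*, a cell wall mannoprotein gene (0.26), and *ECM13* (0.38). For *GCV2* they were *HPF1* (0.22), the hexose transporter gene *HXT7* (0.23) and *CRG1* (0.23). For *SER3* they were *LEU2*, of leucine synthesis (0.14), *GPX2*, a glutathione peroxidase gene (0.28), and *YLR108C* (0.29). The genes nearest to *CHA1* lay farther off, *HPF1* at 0.84, *MEI4* at 0.85 and *MIP6* at 0.87.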

How the data were processed

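The authors deposited 1 table of log2 expression values, covering 5716 probe sets on 8 arrays. The log base was read from the values, which ran from 0 to 14.51, while the sources used here do not state how background was corrected, probes summarised or arrays scaled. Detection calls were not analysed here, so no gene could be marked as above background. Per the labels' protocols, biotin-labelled cRNA was made from total RNA by a one-cycle assay. Probe sets were named through the platform annotation, with 12 symbols updated through a gene table of the R64 assembly, used for names alone. Of the probe sets 5498 had a single symbol, 0 had several and 218 had none and stayed unnamed. Where several probe sets named a gene, that with the highest mean was kept, which left 5449 genes.

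Groups and replicate numbers came from the sample titles. The limma package (version 3.58.1, under R 4.3.3) estimated 4 group means from the 8 arrays together by lmFit and eBayes, with 4 residual and 2.7 prior degrees of freedom, and 5 contrasts were tested, two-sided, with Benjamini-Hochberg adjustment over all genes of a contrast. The threshold for a call was an adjusted p below 0.05. On simulated data of 5449 genes the interaction fit recovered 168 of 200 genes changed by 1 on the log2 scale, with 7 false calls. The simulated noise was independent between genes, with no shift shared by an array, and the changes were put into heated met30-6 alone. In the data 2631 genes were called in the interaction, so the simulated counts give no error rate for these data. The number of arrays limits the precision.

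The members and gene lists were chosen with earlier results of these data known. All members were named, as were up to 4 genes of each list with the lowest adjusted p in the interaction, every regulator, and the 3 genes nearest to each of the 4 widest-ranging members. Alternatives were quantile normalisation, centred array medians, leaving out the 25% of genes with the lowest mean, all probe sets, the mean of a gene's probe sets, the replicate number as a block, an intensity trend, only the groups compared, and leaving out each array.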

Additional observations from a re-analysis of the deposited data

Results flagged for a closer look

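The heat responses of the strains differed for each of the 10 genes by the test of the difference itself, the interaction in limma. The interaction was positive, towards met30-6, for *CHA1* (1.44), *SER33* (1.38), *GCV1* (1.37), *GCV2* (1.21), *SER3* (1.17), *SER1* (0.88), *SHM2* (0.67) and *GCV3* (0.48). That of *GCV3* was no longer called on leaving out 1 array in 6 of the 8 cases (adjusted p from 0.0522 to 0.0628). It was negative for *SER2* (−0.61) and *SHM1* (−0.57). Among all genes 48.3% were called in this comparison. Groups of 2 arrays are too small to look for outlying samples.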

How the results depend on the processing

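Of the 50 differences of the 10 genes in the 5 comparisons, 43 kept their call under each alternative run and 7 changed it under at least one. In 785 values under alternatives, 20 lost a call and 3 gained one, each with quantile normalisation (*SHM1* for heat in PY1, *GCV1* and *GCV2* between the strains at 35 °C). The sign turned in 13 values, of which 12 were called under neither setting. The exception was *GCV2* between the strains at 35 °C, which was 0.006 and became −0.26 with quantile normalisation. The cause was not tested. Calls of members were lost for *GCV3* and *SHM2* alone, at 25 °C also with only the groups compared (adjusted p = 0.148 and 0.0656). Without any 1 array the count of members called ranged from 7 to 7 for heat in PY1, 10 to 10 for heat in met30-6, 4 to 6 for the strains at 25 °C, 6 to 7 for the strains at 35 °C and 9 to 10 in the interaction. With the dimmest genes left out *CHA1* was not among the genes tested. With quantile normalisation the calls over all genes for the strains at 25 °C went from 378 higher and 324 lower to 531 and 551. List counts outside the members moved more: the 8 genes of glycine and threonine routes had from 1 to 7 calls in the interaction, and the 7 users of serine or glycine from 0 to 2 at 25 °C.

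Replicate numbers recur in each group, but the labels do not say what they share. Deviations of same-numbered arrays correlated across genes between −0.18 and 0.11 over the 6 pairs of groups, so the numbers were not taken to pair the arrays. With the replicate block, 7, 10, 5, 7 and 10 members were called in the order above, and *GCV3* at 25 °C was the only call of a member lost (−0.37, adjusted p = 0.0693). Values near the highest of any array, 14.51, included those of *SHM2* at 35 °C and of *SER33*, *ADE3* and *CYS4* in met30-6 at 35 °C.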

Other observations

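Genes that take up or use serine and glycine gave a mixed picture. *GAP1*, the general amino acid permease gene, fell by 1.93 with heat in PY1 and fell by 1.99 in met30-6, with an interaction of −0.06 that was not called. *GNP1* and *DIP5*, permease genes whose products also carry serine or other amino acids, rose with heat in met30-6 by 0.63 each, and in PY1 by 0.37 and 0.49. The *GNP1* rise in PY1 was not called without PY1 35 °C replicate 2 (0.33, adjusted p = 0.0559). *PUT4*, a permease gene for proline that also accepts glycine, was lower in met30-6 by 0.88 at 25 °C and by 2.22 at 35 °C, with an interaction of −1.34 ± 0.13 (adjusted p = 0.000374). *PUT4* read 7.43 and 7.18 in met30-6 at 35 °C, and whether that level lay above background is not known. Of 7 genes whose enzymes use serine or glycine, 1 was called in the interaction, *CYS4*, which encodes cystathionine beta-synthase (0.52 ± 0.10, adjusted p = 0.00492). In that comparison 48.3% of all genes were called. *HEM1* (−0.14) and *LCB1* (−0.16) were not called, but were with quantile normalisation (−0.23 and −0.31, adjusted p = 0.0393 and 0.0156), and *GSH2* (0.05) was not called.

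The log2 of the summed linear levels of 6 MATa markers was 14.52 to 14.62 in PY1 at 35 °C. It was 14.83 to 15.08 in the other groups. Of the 6, 4 were called lower with heat in PY1, where 10.4% of all genes were. *BAR1* was dim, with group means of 4.82 to 6.24. The same log2 value for 4 MATalpha markers was 9.96 to 10.38 over all groups. *SAG1*, with group means of 9.78 to 10.12, made up most of it. *STE3*, *MF(ALPHA)1* and *MF(ALPHA)2* had group means of 3.77 to 6.36. For 4 meiotic markers the log2 of the sum was 9.70 to 9.82 at 25 °C and 10.30 to 10.39 at 35 °C over both strains. With heat 3 were called higher in PY1 and 4 in met30-6, where 26.2% and 38.8% of all genes were. In PY1 *HOP1* changed by −0.14 and was not called. No marker was listed at 0 on both arrays of a group. Their part in the results was not tested.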
